A study of Schmidtea mediterranea with 48 samples.

Results

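The comparison described here is RNA interference (RNAi) against pax5 in whole planarians, set against the unc22 control on day 18 of the time course. All groups were of the asexual planarian Schmidtea mediterranea, clonal line CIW4, so all worms shared 1 genetic background. Worms of both groups ate liver paste mixed with HT115 bacteria that make double-stranded RNA, every 3 days for 3 feedings. In 1 group the RNA matched pax5, and in the control it matched unc22, a nematode muscle gene used as a non-targeting control. Each group had 4 polyA libraries on day 18, among 48 libraries that also cover days 6 and 12 and RNAi against zfp1 and sox8. The labels do not say whether a replicate was 1 worm, a pool or a repeated library, so the p-values below cover no more than the spread of libraries within a group, and that spread may be technical.

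Features were kept where their mean over the 48 libraries was at least 0.5 RPKM (reads of a feature scaled by its length and by the depth of the library). This kept 22667 of the 28413 features in the deposited table, which is 79.8%, and all 22667 entered the test. The table names features by SMED30 identifiers and does not pair them with gene names. The level of pax5 itself, and marker genes of planarian cell types, were therefore not looked up, and neither the knockdown nor the whole-worm label was checked on named genes. All 48 libraries are labelled as whole worm, although the protocol they share also mentions sorted cells. Features whose sequence is close to that of another feature are uncertain, because the handling of reads that align to several features is not given in the sources used here. In whole-worm RNA, fewer cells of a type and less RNA per cell cannot be told apart.

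Pax proteins are transcription factors that bind DNA through a paired domain. In vertebrates PAX5 is known for setting and holding the identity of B lymphocytes. Planarians replace all of their tissues throughout life from dividing stem cells called neoblasts, so a gene needed for the formation of a short-lived cell type can be followed by the gradual loss of that type's transcripts after RNAi. The epidermis is one of the tissues that is renewed in this way, through non-dividing progenitors, and zfp1 is known in this species as a gene that the epidermal lineage needs.

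The recovered depth of the 8 libraries ran from 9577955 to 23308140 reads in the pax5 group and from 15523900 to 24735177 in the unc22 group. A floor of 3 reads stood at 0.113 to 0.294 RPKM, depending on the library, for a feature of the median length of 1098 bases, which covers counting error alone. The first principal component of the 8 libraries held 45.9% of the variance and put the 4 pax5 libraries on one side and the 4 controls on the other. Pax5 replicate 1, the shallowest of the 8, deviated most from its group mean, with an SD of 0.222 in log2 units over all features against 0.161 to 0.190 in the other 7. The labels give no batch.

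The response on day 18 was led by falls. Limma's moderated test with Benjamini-Hochberg adjustment called 1691 features at an adjusted p under 0.05, which is 7.46% of those tested, and 1128 of them were lower (4.98%) and 563 higher (2.48%) after pax5 RNAi. Of these, 297 were lower by at least 2-fold (1.31% of features tested) and 15 were higher by at least 2-fold (0.0662%). Falls and rises are called as such only where this test called them, and each change is a difference of log2(RPKM + 0.5), which understates the change of low features. Fits that depend less on that constant gave more large changes: with a pseudocount of 0.1 the counts were 368 falls and 28 rises, and with voom on the recovered reads 373 and 28. With all libraries thinned to the same 6894458 reads, 1102 features were called in all, while 300 still fell and 20 rose by at least 2-fold.

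**Figure D1:**
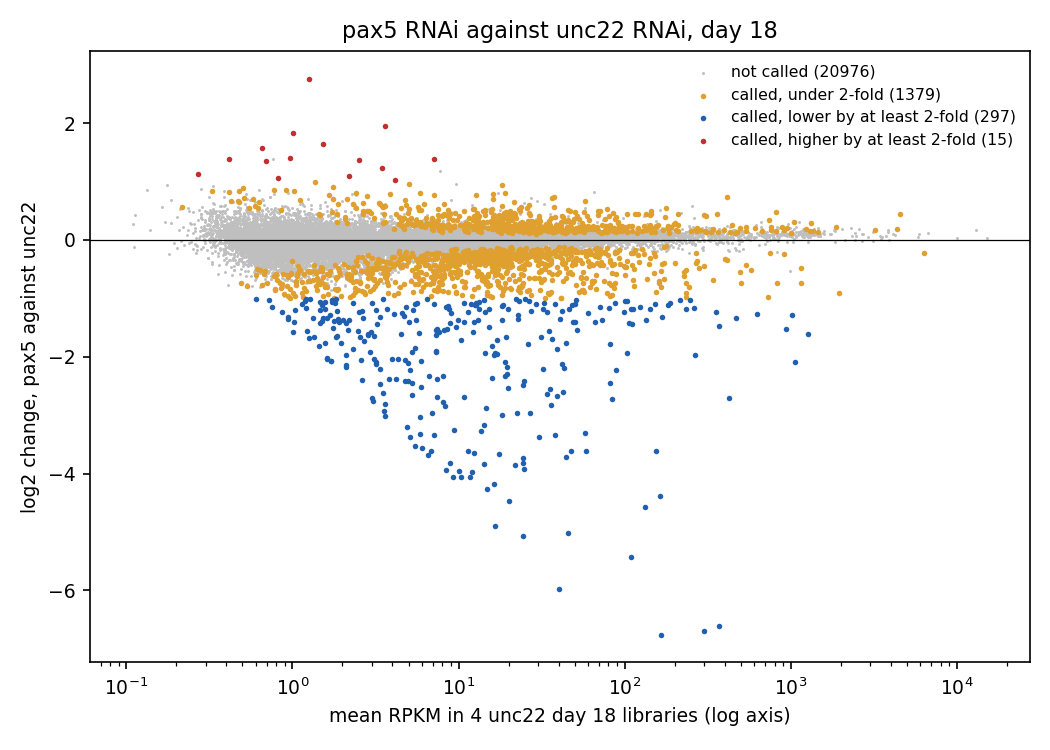
Each point is 1 of the 22667 features, with its mean RPKM in the 4 unc22 libraries of day 18 on a log axis against its log2 change after pax5 RNAi. The 297 features lower by at least 2-fold spread over control levels from 0.601 to 1278 RPKM, while the 15 features higher by at least 2-fold all lie at 7.09 RPKM or less.

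Most called changes were small, and the small ones went both ways. Under 1.5-fold there were 574 lower and 502 higher features. Larger changes were more one-sided with each step: 257 lower and 46 higher from 1.5-fold to 2-fold, 185 and 14 from 2-fold to 4-fold, and 64 and 1 from 4-fold to 8-fold. The remaining 48 features all fell by 8-fold or more, and 16 of them fell at least 16-fold and 7 at least 32-fold. The share of rises among all calls depended on the processing. It was 33.3% as deposited and 44.3% under quantile normalization (853 higher, 1072 lower), where 279 features fell by at least 2-fold. Library weights gave 2425 calls, 1077 higher and 1348 lower, with 294 falls and 14 rises of at least 2-fold. A fit of the pax5 and unc22 groups of day 18 alone called 731 higher and 1077 lower. The count of 563 rises was lower with any 1 of the 8 libraries left out, from 356 without pax5 replicate 2 to 539 without unc22 replicate 1. Those fits also called fewer features in all, at 1376 to 1561. The limit of 2-fold cuts through a crowded range, since 39 called features lay between -1.1 and -1.0 in log2 units and 38 between -1.0 and -0.9.

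The deepest fall was that of SMED30003024, a feature of 579 bases. It stood at 170.4, 159, 169 and 161 RPKM in unc22 replicates 1 to 4 and at 0.928, 1.57, 0.694 and 1.05 RPKM in pax5 replicates 1 to 4. The groups are far apart, and the pax5 values rest on only 5 to 20 reads per library against 1488 to 2372 in the controls. The change was -6.76 in log2 units (SE 0.15, adjusted p = 5.27e-33, lower in 4 of 4 libraries).

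SMED30035904, of 728 bases, was next, with 301, 294, 305 and 305 RPKM in the controls and 2.66, 2.43, 2.08 and 2.59 RPKM after pax5 RNAi. Its groups did not overlap either, and each was tight, at 301 ± 5.08 and 2.44 ± 0.257 RPKM (SD, n = 4). The change was -6.69 (SE 0.27, adjusted p = 9.18e-23). SMED30020396 (571 bases) also fell more than 64-fold, from 369 ± 6.19 to 3.35 ± 0.761 RPKM (SD, n = 4). It is named here after its values were seen.

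Rises were few and started from low levels. SMED30034302, of 734 bases, led them, with 1.45, 1.22, 0.843 and 1.53 RPKM in the controls and 8.64, 14.0, 11.2 and 12.0 RPKM in the pax5 libraries. The lowest pax5 value was several times the highest control value, and the change was 2.76 in log2 units (SE 0.24, adjusted p = 2.45e-12, higher in 4 of 4 libraries). SMED30033800, of 523 bases, stood at 4.56, 3.27, 2.84 and 3.82 RPKM in the controls and at 14.0, 14.6, 14.8 and 17.8 RPKM after pax5 RNAi, a change of 1.95 (SE 0.27, adjusted p = 5.83e-07). Again the groups did not overlap.

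**Figure D2:**
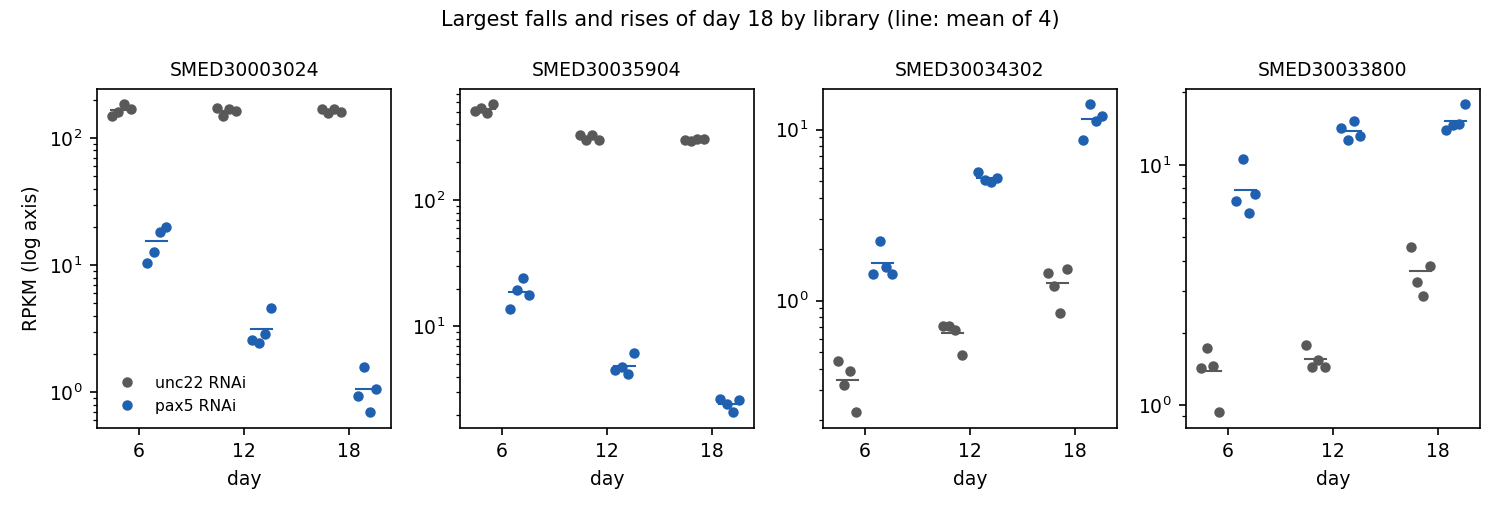
RPKM on a log axis of the features with the largest falls (SMED30003024, SMED30035904) and rises (SMED30034302, SMED30033800) of day 18, in each of the 4 unc22 and 4 pax5 libraries of days 6, 12 and 18, with lines at group means. The pax5 means of both falls went down from day to day, and both rises were already present on day 6.

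The 15 rises as a group had control means of 0.270 to 7.09 RPKM and pax5 means of 1.24 to 19.1 RPKM, and their lengths ran from 252 to 1310 bases with a median of 440. All of them together summed to 30.6 RPKM in the controls and 100.2 RPKM in the pax5 libraries. When features were required to have a mean of at least 2 RPKM over the 48 libraries, 9 rises of at least 2-fold were left. The wider class of 563 called rises was different in kind: its median was 0.25 in log2 units at a median control level of 22.4 RPKM, and its summed level went from 57061 to 68097 RPKM. Small rises in well-expressed features thus made up nearly all of the RPKM gained.

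The 297 falls spanned control means from 0.601 to 1278 RPKM. Their median level was 10.1 RPKM in unc22 and 1.58 RPKM in pax5 libraries on day 18, and the median control level of all features tested was 6.27 RPKM. Among features at or above 100 RPKM in the controls, 35 of 1206 fell by at least 2-fold, which is 2.90%. This share was 1.67% from 30 to 100 RPKM, 1.33% from 10 to 30, 1.55% from 3 to 10, 1.34% from 1 to 3 and 0.158% below 1 RPKM. In the lowest class calls of any size were also few, at 0.951% lower and 0.607% higher. Part of that class could not hold a 2-fold fall: below a control mean of 0.5 RPKM, log2(RPKM + 0.5) drops by less than 2-fold even with no read left. Its low share of falls is therefore set in part by the pseudocount. How far the pseudocount limits falls in the rest of the class was not tested. Falls were shorter than the features tested as a whole, with a median of 819 bases against 1098 bases. The 1128 features called lower at any size had a median of 1186 bases.

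Some transcripts were gone to the limit of the sequencing. In 39 of the 297 falls no pax5 library of day 18 held more than 3 reads, and in 18 of them the 4 libraries together held at most 3 reads. The share of all features tested with so few reads is not given here, so these counts describe the falls only. SMED30021619, SMED30035233, SMED30014014 and SMED30015796, named after their values were seen, had no read in any of the 4 pax5 libraries. Their control means were 3.05 ± 1.20, 1.63 ± 0.685, 1.00 ± 0.192 and 3.60 ± 0.764 RPKM (SD, n = 4), from 4 to 32 reads per library. For SMED30014014 the controls held only 4 to 6 reads per library. Against a floor of 3 reads over the whole group the 4 features were at least 15.7-fold, 21.8-fold, 6.23-fold and 28.7-fold lower, in the order named. With these 4 set at their bound the median change of the falls was -1.61; 3 of the 4 lay below the median in any case.

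The loss was even across the pax5 libraries. The 297 falls made up 0.548%, 0.542%, 0.524% and 0.555% of summed RPKM in pax5 replicates 1 to 4, against 1.83%, 1.88%, 1.81% and 1.77% in unc22 replicates 1 to 4. These shares did not overlap, as the choice of the features requires. No pax5 library held back more than the others: replicates 1 to 4 had the highest value of the group in 76, 66, 71 and 84 of the falls. Among the controls replicate 1 had the highest value in 135 of the falls and replicate 3 in 33, and leaving out either changed the count of falls by little (291 to 304 falls over the 8 libraries left out in turn). Summed over the falls, 15086 RPKM in the controls became 4624 RPKM, and the 10 features with the largest absolute loss made up 45.8% of the loss.

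Libraries of the earlier days have their own controls and show how far the falls were present before. Their levels are not part of the day 18 changes. They did enter the filter and the spread that all 12 groups share, which favours repeated calls of features with little spread. Of the 297, 257 were already called lower on day 6 (2.68% of all features were) and 288 on day 12 (4.20%). Medians over the 297 were -0.91, -1.37 and -1.61 in order of days, and the last is set in part by the choice of features on that day. In pax5 libraries the median level went from 3.45 RPKM on day 6 to 2.05 on day 12 and 1.58 on day 18, while in unc22 it was 9.32, 9.40 and 10.1 RPKM. Over all 22667 features the log2 change of day 18 correlated with that of day 12 at r = 0.78 and with that of day 6 at r = 0.66, given as a description over features that share libraries.

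By the first day on which a feature was called and lower by at least 2-fold, the falls divide into 135 of day 6, 90 of day 12 and 72 of day 18. The early class had medians of -1.60, -2.23 and -2.44 on days 6, 12 and 18, the first of them set by the sorting itself, and a median pax5 level of 0.679 RPKM on day 18. The class of day 12 had medians of -0.74, -1.26 and -1.46, and the class of day 18 had medians of -0.46, -0.79 and -1.11. Most late members had moved before: 64 of the 72 were called lower on day 12 and 40 on day 6. Looking forward, 135 of the 144 features lower by at least 2-fold on day 6 were so on day 18. From day 12 it was 224 of 234, and 1.31% of all features were lower by at least 2-fold on day 18.

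**Figure D3:**
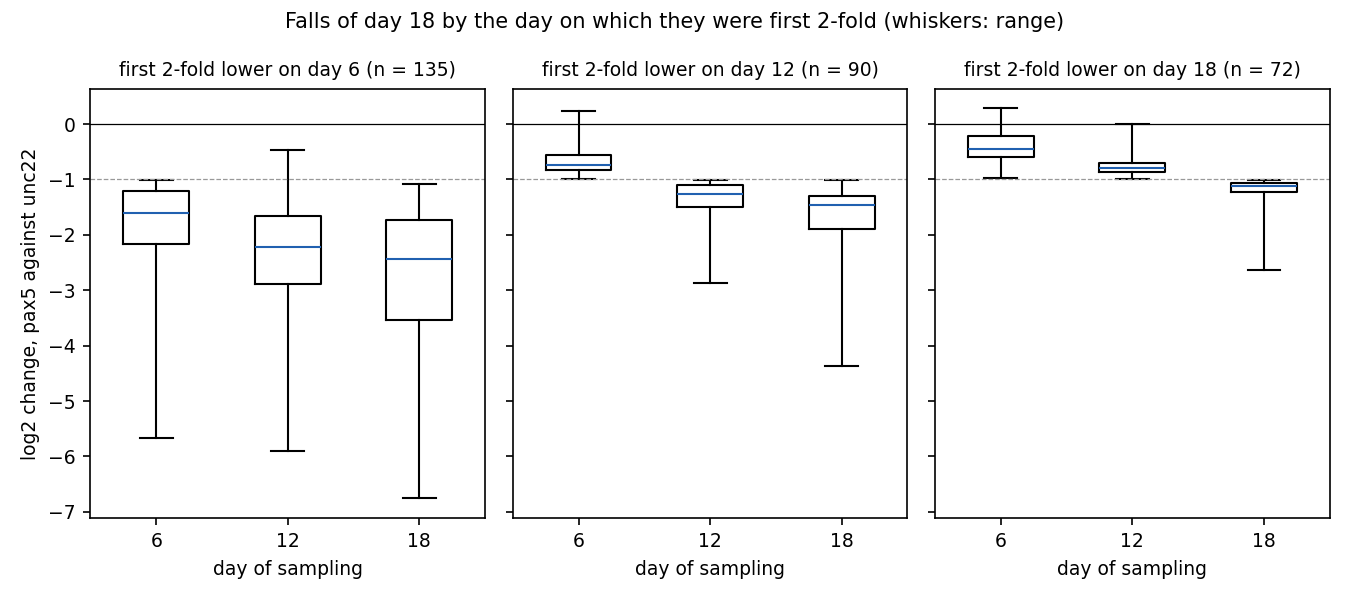
Log2 change of pax5 against unc22 on days 6, 12 and 18 for the falls of day 18, in 3 panels by the day of the first 2-fold fall (135, 90 and 72 features). Boxes show quartiles and median and whiskers the range; the dashed line is 2-fold. The order of the panels on day 6 follows from how the classes were formed; the early class also has the lowest medians on days 12 and 18.

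The rises were followed in the same way. Of the 15 features higher by at least 2-fold on day 18, 11 were called higher on day 6 (2.44% of all features were) and 13 on day 12 (2.06%), and 9 of them were at least 2-fold on day 6. In the other direction, 9 of the 15 features 2-fold higher on day 6 were so on day 18. Of the 15 of day 12, 10 were, against 0.0662% of all features tested. SMED30022734, of 407 bases and the largest rise of day 6, was not among those still 2-fold higher. On day 6 its means were 11.3 ± 2.86 RPKM after pax5 RNAi and 1.37 ± 0.614 in the controls, and on day 18 they were 49.1 ± 25.8 and 27.4 ± 5.20 RPKM (SD, n = 4), when the change of 0.71 was not called (adjusted p = 0.293).

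The difference of the pax5 effect between days was tested next. Against day 6 the day 18 effect was lower in 403 features (1.78%) and higher in 49. Among the 297 falls were 171 of the 403 (1.31% of all features were falls). The difference is not growth in all of them, since 59 of the 403 had been called higher on day 6 (2.44% of all features were). Of the 49, 12 had been called lower on day 6 (2.68%). The test of the difference uses the same day 6 and day 18 libraries as these calls, which favours such overlaps. The count of 49 depended on the processing, at 119 under quantile normalization (396 lower), 138 with library weights (564 lower) and 84 with voom (436 lower). SMED30020726, the longest feature named here at 11239 bases, showed the largest such difference. Its unc22 mean was 141 ± 14.2 RPKM on day 6 and 164 ± 25.3 on day 18, while its pax5 mean went from 82.0 ± 7.46 to 7.38 ± 0.421 RPKM (SD, n = 4). On day 18 its values were 141, 199.7, 163 and 154 RPKM in the controls and 7.21, 7.15, 7.16 and 8.01 RPKM after pax5 RNAi, and the difference between the days was -3.59 (SE 0.16, adjusted p = 2.21e-20). SMED30003024 followed with a difference of -3.33, as its pax5 mean went from 15.4 ± 4.55 RPKM on day 6 to 1.06 ± 0.369 on day 18 at an even control level.

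Of the 49 features with a more positive effect on day 18, 33 were called higher on that day (2.48% of all features were), in a call that uses the same day 18 libraries. The largest of them, SMED30018762 (572 bases, difference 2.06, adjusted p = 1.32e-09), was not: it stood at 3.19, 3.25, 4.68 and 3.30 RPKM in pax5 and 3.48, 2.92, 2.81 and 2.62 RPKM in unc22 libraries of day 18, which overlap. On day 6 it had been 41.5 ± 6.59 RPKM in the controls and 11.4 ± 2.20 after pax5 RNAi (SD, n = 4), and by day 12 the controls had dropped to 2.73 ± 0.423 RPKM (SD, n = 4), near the pax5 level of 3.01 ± 0.195. SMED30034302 was more positive by 1.41 (adjusted p = 0.0131), from means of 0.343 and 1.67 RPKM on day 6. Its adjusted p missed the threshold in 3 alternatives, at 0.560 for a pseudocount of 0.1, 0.342 for voom and 0.339 for equal depth, and over the 27 alternatives its adjusted p ran from 0.000194 to 0.560.

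Between day 12 and day 18 the effect changed in far fewer features. It was more negative in 41 (0.181%), of which 37 were among the falls and all 41 were called lower on day 18 (4.98% of all features were), and the median difference was -0.81. Both tests use the same day 18 libraries, which favours that overlap. Limma called 0 features more positive, and voom also 0, while 437 features of that direction had an unadjusted p under 0.05 (527 of the negative one). With no filter on low values, with library weights and at equal depth it called 1. SMED30010453 (499 bases) had the largest difference, at -1.84 (SE 0.27, adjusted p = 4.02e-05). In the controls it rose from a mean of 9.61 RPKM on day 12 to 21.8 on day 18 while the pax5 mean went from 2.05 to 1.05, so the controls moved more on the log2 scale than the pax5 libraries did, and with voom it was not called (adjusted p = 0.372; 5.83e-06 to 0.372 over 27 alternatives). SMED30019249 (819 bases) differed by -1.80 (SE 0.12, adjusted p = 2.29e-13): its controls held at 31.6 ± 2.44 and 34.1 ± 3.32 RPKM, while the pax5 mean dropped from 17.4 ± 1.59 to 5.06 ± 0.506 RPKM (SD, n = 4). The count of 41 was 18 with voom, 23 at equal depth and 27 without pax5 replicate 1 of day 18.

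The falls were then compared with the other knockdowns of day 18, in direct tests whose differences leave the controls out. The control libraries still entered the filter and the spread that all 12 groups share in these tests. These tests still use the pax5 libraries that chose the falls, so low pax5 values are favoured. Of the 297 falls, 210 were lower in pax5 than in zfp1 libraries (9.60% of all features were), 36 were higher in pax5 (14.3%), and 51 were not called. Over all features the balance of this test turned with the scaling, from 3239 higher and 2175 lower in pax5 as deposited to 2832 higher and 3139 lower under quantile normalization. The 210 had median levels of 10.6 RPKM in unc22, 6.92 in zfp1 and 1.17 in pax5 libraries. The 36 had a higher control level at the median, with medians of 95.5 RPKM in unc22, 37.6 in pax5 and 14.8 in zfp1 libraries. The 51 had low medians in both knockdowns, at 0.758 RPKM in pax5 and 0.948 in zfp1.

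**Figure D4:**
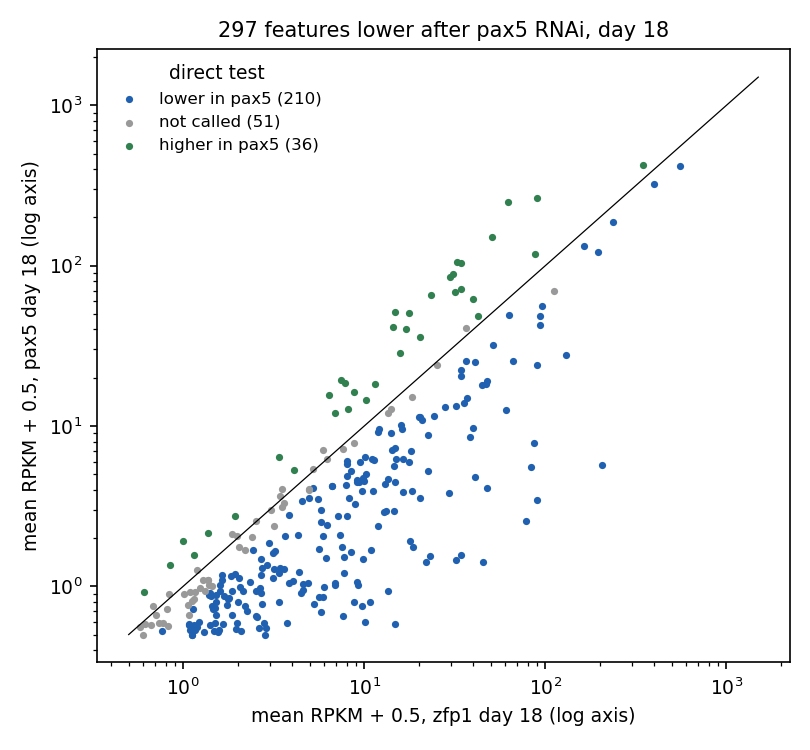
Mean RPKM + 0.5 of the 297 falls in 4 zfp1 libraries against 4 pax5 libraries of day 18, both on log axes, coloured by the direct test between them. The 210 features lower in pax5 lie below the line of equal levels and the 36 higher in pax5 lie above it, at low and at high levels.

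The direct test against zfp1 can be set beside the timing, with no test of their relation. Of the 135 falls of day 6, 103 were lower in pax5 than in zfp1 and 7 were higher (9.60% and 14.3% of all features were). For the 90 falls of day 12 these numbers were 59 and 14, and for the 72 falls of day 18 they were 48 and 15. The largest differences with the lower level in pax5 were those of SMED30006763 (792 bases) and SMED30007443 (461 bases). SMED30006763 stood at 5.16, 4.07, 5.01 and 6.45 RPKM in pax5 libraries and at 185, 164, 261 and 206 RPKM in zfp1 libraries, against a control mean of 133 ± 21.5 (SD, n = 4). The groups were far apart, with a difference of -5.17 (SE 0.16, adjusted p = 1.16e-27), and for SMED30007443 it was -5.00, from a mean of 0.915 RPKM in pax5 and 45.0 in zfp1. The control mean of SMED30007443 was 17.4 ± 3.10 RPKM (SD, n = 4), below its zfp1 level, and its change against unc22 was -3.66.

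On the other side of that comparison the leading features were not called against unc22 after pax5 RNAi. SMED30023017 (799 bases) was higher in pax5 than in zfp1 libraries by 5.73 (SE 0.25, adjusted p = 1.82e-21) and SMED30032042 (396 bases) by 5.43. Their changes against unc22 were 0.13 and 0.12 (adjusted p = 0.854 and 0.875). SMED30023017 had means of 214 ± 21.0 RPKM after pax5 RNAi, 196 ± 16.2 in the controls and 4.51 ± 3.83 after zfp1 RNAi (SD, n = 4), and SMED30032042 had 607 ± 53.4, 558 ± 48.3 and 17.3 ± 12.9 RPKM.

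Against sox8 the falls were nearly all lower in pax5: 281 of 297 (4.06% of all features were), with 13 not called and 3 higher in pax5 (1.84%). Medians of the 281 were 9.91 RPKM in unc22, 8.99 in sox8 and 1.60 in pax5 libraries. SMED30003024 differed by -6.70 on the log2 scale, with 160.2, 168, 161 and 147 RPKM in the sox8 libraries, and SMED30023073 (651 bases) differed by -4.92, with 0.961 ± 0.352 RPKM in pax5 and 43.1 ± 4.34 in sox8 libraries (SD, n = 4). The 3 that were lower still in sox8, named after their values were seen, were SMED30025741, SMED30031990 and SMED30002134. SMED30025741, for example, went from 425 ± 5.53 RPKM in unc22 to 65.5 ± 9.58 in pax5, 22.8 ± 11.8 in zfp1 and 10.2 ± 4.60 in sox8 libraries (SD, n = 4).

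The features that set pax5 above sox8 by the most were SMED30009302 (608 bases) and SMED30014876 (737 bases), with differences of 3.66 (SE 0.17, adjusted p = 2.11e-21) and 3.43 (SE 0.23, adjusted p = 3.31e-15). SMED30009302 stood at 214, 225, 224 and 232 RPKM in pax5, 192, 214, 197 and 192 RPKM in unc22 and 16.0, 17.1, 14.2 and 22.6 RPKM in sox8 libraries. Neither feature was called against unc22 after pax5 RNAi, with changes of 0.17 and -0.54 (adjusted p = 0.667 and 0.190). SMED30014876 was still lower in every pax5 library of day 18, at 666, 688, 654 and 713 RPKM. Its unc22 libraries stood at 989.7, 1020, 951 and 991 RPKM, so those groups did not overlap. The SE of 0.23 behind that test draws on the spread within all 12 groups. In all, 206 of the 297 falls were lower in pax5 than in both zfp1 and sox8 libraries, as were 2.11% of all features tested.

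The shares of summed RPKM put the 4 knockdown series side by side over time. On days 6, 12 and 18 the 297 features held 2.22 ± 0.0416%, 1.87 ± 0.0460% and 1.82 ± 0.0460% in unc22 libraries and 1.12 ± 0.0289%, 0.694 ± 0.0263% and 0.542 ± 0.0130% in pax5 libraries (SD, n = 4). In zfp1 libraries they held 1.90 ± 0.0412%, 1.04 ± 0.0831% and 0.747 ± 0.0340%, and in sox8 libraries 1.62 ± 0.0270%, 1.45 ± 0.0337% and 1.31 ± 0.0166%. Pax5 libraries were the lowest on each of the days, which the choice of the features favours, and the widest gap to zfp1 libraries was that of day 6. These shares weigh each feature by its level, so they are led by the few at high RPKM.

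**Figure D5:**
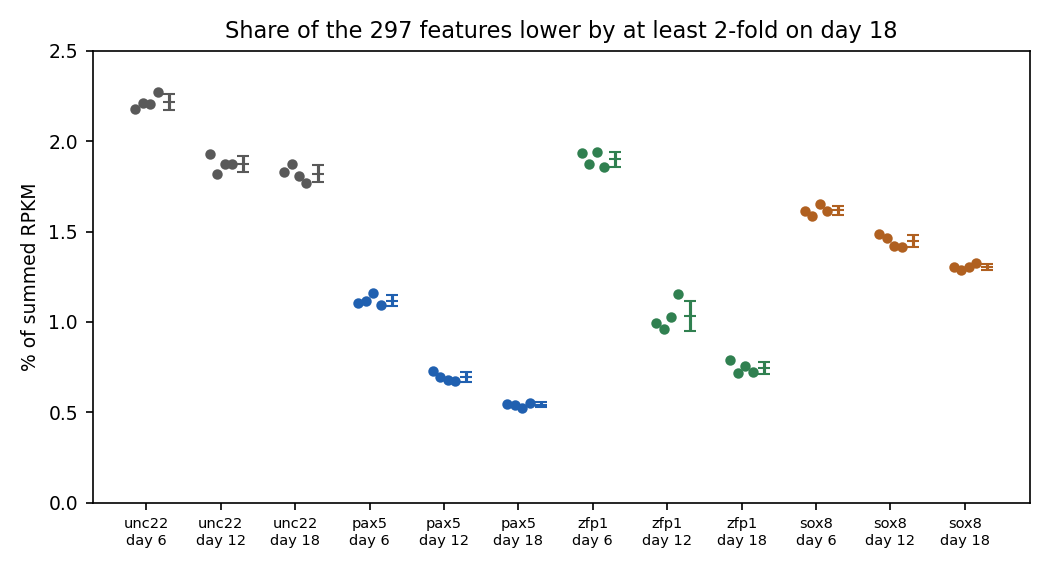
Percent of summed RPKM held by the 297 features that fell at least 2-fold after pax5 RNAi on day 18, in each of the 48 libraries, with the mean and SD of 4 libraries beside each group. The pax5 libraries lie lowest on each day, from 1.09% to 1.16% on day 6 down to 0.524% to 0.555% on day 18.

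Of the 15 rises, 10 were higher in pax5 than in zfp1 libraries of day 18 (14.3% of all features were) and 12 were higher than in sox8 libraries (1.84%). The pax5 libraries of these tests also chose the rises. The median level of the 15 was 5.19 RPKM in pax5, 1.26 in unc22, 1.18 in zfp1 and 1.44 in sox8 libraries. Some of them were also above the controls after zfp1 RNAi. The 4 not called against zfp1 had medians of 5.72 RPKM in pax5, 5.85 in zfp1 and 1.76 in unc22 libraries. For the 10 higher in pax5 these were 4.30, 0.558 and 1.11 RPKM. SMED30034302, 1 of the 10, had 4.24 ± 1.96 RPKM in zfp1 and 1.26 ± 0.307 in unc22 libraries (SD, n = 4). The 1 rise that was lower in pax5 than in zfp1, SMED30018133, is named after its values were seen. It had 5.75 ± 1.52 RPKM in pax5, 11.7 ± 3.13 in zfp1 and 1.53 ± 0.702 in unc22 libraries (SD, n = 4). SMED30033800 did not differ between pax5 and zfp1 at the threshold (adjusted p = 0.0547), where zfp1 libraries were widely spread, at 10.3, 30.9, 68.9 and 18.0 RPKM.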

How the data were processed

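The deposited table holds RPKM values of 28413 features in 48 polyA libraries of whole worms, made by the authors, with 1 column per library. The submitters' processing notes list CASAVA 1.8.2, Bowtie and edgeR, and do not say which step each served. The reference transcripts, the strandedness and the filters are not given in the sources used here. The low values step in whole reads: all 28413 features gave whole reads within a tolerance of 0.0001 (largest deviation 1.86e-09), and library totals ran from 6894458 to 65663283 reads with a median of 23162610, scaled by factors of 0.929 to 1.073. Intervals and floors from these reads cover counting error only. Lengths in bases were inferred in the same recovery, with the library factors scaled to a geometric mean of 1. The deposited table does not give them.

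Features with a mean of at least 0.5 RPKM over the 48 libraries were tested with limma 3.58.1 in R 4.3.3 on log2(RPKM + 0.5), two-sided, with trend and robust moderation, 1 mean for each of the 12 groups of RNAi and day, and Benjamini-Hochberg adjustment within each contrast. A feature was called at an adjusted p under 0.05. The features named per contrast are the top 2 calls by size of change in each direction, among those reaching 1 RPKM in the group with more and, for contrasts of 2 groups, having libraries that do not overlap. The features, lists and tests were chosen with earlier results of these data known. Lists of cell type markers and the targeted genes could not be used, because no names were matched to the identifiers. Alternatives were the pseudocount, the filter, the scaling, the libraries in the fit, a replicate block, library weights, voom on the recovered reads, equal depth and leaving out each library. Read recovery and the fit were tested on simulated data. Within the pax5 and unc22 groups of day 18 no replicate pair differed by less than sampling noise, with chi-square per degree of freedom from 1.76 to 3.72.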

Additional observations from a re-analysis of the deposited data

Results flagged for a closer look

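In 4 of the 83 groups of 4 libraries examined for the named features, 1 library lay apart from the other 3, and chance alone flags about 1 group in 20. SMED30020726 stood at 8.01 RPKM in pax5 replicate 4 of day 18, with the others at 7.15 to 7.21. SMED30018762 stood at 4.68 RPKM in pax5 replicate 3 of day 18, with the others at 3.19 to 3.30. SMED30023073 stood at 1.49 RPKM in pax5 replicate 1, the shallowest library of that group, with the others at 0.754 to 0.837. SMED30019249 stood at 39.0 RPKM in unc22 replicate 2 of day 18, with the others at 31.8 to 32.8. The gaps are small beside the differences between groups, except for SMED30018762, whose groups overlap on day 18.

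The features named for the contrasts between days were chosen among the calls of limma's test of the difference. That their pax5 effect differed between days therefore follows from the choice, and only the sizes are given here. Between day 6 and day 18 the differences were -3.59 for SMED30020726, -3.33 for SMED30003024, 2.06 for SMED30018762 and 1.41 for SMED30034302. Between day 12 and day 18 they were -1.84 for SMED30010453 and -1.80 for SMED30019249. Those of SMED30034302 and SMED30010453 were not called under some alternatives, as given with their values above.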

How the results depend on the processing

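No named feature changed the sign of its difference under the alternatives run. The balance of higher and lower calls did turn in places: against zfp1 it was 3239 higher and 2175 lower, and 2832 and 3139 under quantile normalization. On day 6 it was 554 higher and 607 lower, and 638 and 565 above a mean of 2 RPKM and 1227 and 958 with library weights. Of 542 recomputed values of named features, 537 kept their call and 5 lost it: SMED30034302 for day 18 against day 6 in 3 alternatives, SMED30010453 for day 18 against day 12 with voom, and SMED30022734 on day 12 with voom (adjusted p = 0.0565). Of 187 recomputed counts of calls, 175 stayed within 1.5 times. The 2-fold rises of day 18 numbered 28 with a pseudocount of 0.1, 28 with voom and 9 above a mean of 2 RPKM, and the 2-fold falls ran from 234 to 373 over all alternatives. Library weights gave 2445 calls on day 12, 2185 on day 6 and 702 for day 18 against day 6. At equal depth there were 1102 calls on day 18, 731 on day 6, 23 for day 18 against day 12 and 870 against sox8. Voom gave 18 for day 18 against day 12. The cause was not tested, save that equal depth holds fewer reads by construction.

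Leaving out 1 library at a time gave 1376 to 1561 calls on day 18, 291 to 304 falls and 14 to 20 rises of at least 2-fold, 1080 to 1319 calls on day 12, 847 to 1316 on day 6, 380 to 458 for day 18 against day 6, 27 to 44 for day 18 against day 12 (27 without pax5 replicate 1 of day 18), 4897 to 5222 against zfp1 and 1133 to 1243 against sox8. Same-numbered pax5 and unc22 libraries of day 18 correlated at 0.01, -0.01, -0.08 and -0.04 in their deviations from the group means, those of day 12 at 0.00 to 0.03, and those of day 6 at 0.22, 0.09, 0.14 and -0.08. On no day did all 4 pairs exceed 0.1, so the numbers were not taken to pair the libraries; on day 6 replicates 1 and 2 matched their own number best. The replicate block gave 549 higher and 601 lower calls on day 6. With the replicate block 1654 features were called on day 18, 297 of them lower and 16 higher by at least 2-fold, and no call of a named feature changed. At 3 reads or fewer, levels of short or low features are at the limit of the depth.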
